A study of Arabidopsis thaliana with 6 samples.

Results

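*WRKY38* (AT5G22570) and *GRX480* (AT1G28480) are a pair of regulatory genes linked to salicylic acid (SA), the hormone of defence against biotrophic pathogens, in a dataset on the loss of a jasmonate (JA) repressor. They are 2 genes, measured by 2 of the 22746 probe sets left on the array once controls are removed. The annotation gives 13286 genes a probe set of their own, *GRX480* among them, while that of *WRKY38* was named by the selection. Both were chosen by their rise in *ninja-1* roots, so that the difference between the genotypes in these genes is a description here and carries no test. Transcripts were measured on Affymetrix ATH1 arrays in whole roots of 5-do *Arabidopsis thaliana* seedlings, 3 biological replicates of 120 roots for each of 2 genotypes. WT was Col-0 and the mutant was *ninja-1* in the same ecotype, and every plant of both genotypes also carried the *JAZ10pro-GUSPlus* (JGP) reporter. Seedlings were grown aseptically with no hormone or wounding treatment. The mutant is 1 allele, so the arrays compare that line with its control.

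NINJA is an adaptor that links the JAZ repressors to the co-repressor TOPLESS and so keeps JA responses off in undamaged roots. WRKY38 is a group III WRKY transcription factor that is induced by SA through NPR1 and, with its relative WRKY62, restrains SA defence in leaves. GRX480, also named ROXY19, is a CC-type glutaredoxin that binds TGA transcription factors. It is induced by SA and, when overexpressed, represses JA and ethylene defence genes such as *PDF1.2*, which makes it a textbook link between both hormone pathways.

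All values are GCRMA values on the log2 scale. The lowest value on any array was 2.11, the floor of the scale. Between 26.5% and 27.0% of each array's probe sets were no more than 0.05 above it, so a silent transcript can be seen to rise but not to fall. *NINJA* itself had values of 9.60, 9.52 and 9.72 in WT and of 7.30, 7.05 and 7.13 in *ninja-1*, lower in all 3 mutant arrays. Its probe set was placed through the study's supplementary table of changed genes and not through the annotation. Of 16 markers of root cell types 3 had a value. *PYK10*, a beta-glucosidase gene abundant in roots, was 0.30 higher in *ninja-1* (adjusted p = 0.00838, limma). It passed in 3 of 6 fits with 1 array left out, not without WT replicate 1, *ninja-1* replicate 1 or *ninja-1* replicate 2 (adjusted p from 0.0544 to 0.0618). The adjusted p was 0.486 for the root hair gene *EXPA7* and 1 for the cortex gene *CO2*. The log2 of the summed level of these 3 was 13.7 on every WT array and 14.0 on every *ninja-1* array, nearly all of it *PYK10*. Of 6 shoot markers 3 had a value, none at the floor, and the log2 of their summed level ran from 10.3 to 10.4 in WT and from 10.3 to 10.7 in *ninja-1*. The highest sum was that of *ninja-1* replicate 3, where the Rubisco activase gene *RCA* reached 10.5 against 10.1 to 10.2 on the other 5 arrays. *LHCB4.2*, for a light-harvesting protein, was 6.86, 6.93 and 6.58 in WT and 7.21, 7.20 and 7.48 in *ninja-1*. It was above WT in all 3 mutant arrays, as were 7.75% of all probe sets. The difference was 0.51 (95% interval 0.15 to 0.86, unadjusted p = 0.0158, adjusted p = 0.233, limma). The part of these markers in the differences below was not tested, and in whole roots a change in the number of expressing cells cannot be told apart from a change in transcript per cell.

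*WRKY38* was close to silent in WT roots and clearly above the floor in *ninja-1*. Its values in WT were 2.71, 2.38 and 2.32, which is 0.60, 0.27 and 0.21 above the floor. In *ninja-1* they were 5.56, 5.31 and 5.07. The lowest mutant array lay 2.36 above the highest WT array, so the genotypes did not overlap, and replicate 1 was the highest and replicate 3 the lowest of each genotype. The means were 2.47 ± 0.21 (SD, n = 3) and 5.31 ± 0.25 (SD, n = 3), a difference of 2.84 on the log2 scale or 7.18-fold. Since the WT values are so near the floor, the size of this fold is uncertain. Between single arrays of the 2 genotypes it ran from 5.13-fold to 9.47-fold.

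*GRX480* was transcribed in WT roots already and rose from that level. Its values in WT were 6.02, 6.23 and 5.57, all at least 3.46 above the floor. In *ninja-1* they were 7.92, 7.81 and 7.80, within 0.11 of each other, and the lowest of them lay 1.58 above the highest WT array. The means were 5.94 ± 0.34 (SD, n = 3) and 7.84 ± 0.06 (SD, n = 3), a difference of 1.91 or 3.75-fold, and between single arrays 2.98-fold to 5.11-fold. The spread of *GRX480* was unequal between the genotypes. Its SD in WT was larger than that of 96.7% of the 2034 probe sets whose WT mean lay within 0.5 of its own, and WT replicate 3 was the low array. In *ninja-1* its SD exceeded that of 19.9% of the 2765 probe sets of like mean. For *WRKY38* the shares were 98.2% of 7605 probe sets in WT, a range of means that includes the floor, and 80.5% of 1581 in *ninja-1*. These shares were not used in the choice of either gene and are given with no test.

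Both genes are among the 112 probe sets (0.492%) that limma called higher in *ninja-1*, at an adjusted p under 0.05 and at least 2-fold, and among the 7.75% in which every mutant array lay above every WT array. Both facts follow from the choice of the genes. In the other direction 11 probe sets (0.0484%) were called lower. By size, the difference of *WRKY38* was number 22 and that of *GRX480* number 56 of 22746. The log2 difference of *WRKY38* exceeded that of *GRX480* by 0.94, a comparison that starts from the floor for one gene and from a measured level for the other. With any 1 array left out, the difference stayed between 2.72 and 2.97 for *WRKY38* and between 1.72 and 2.05 for *GRX480*. Without *ninja-1* replicate 3, the array with the highest shoot markers, it was 2.97 and 1.93.

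**Figure D1:**
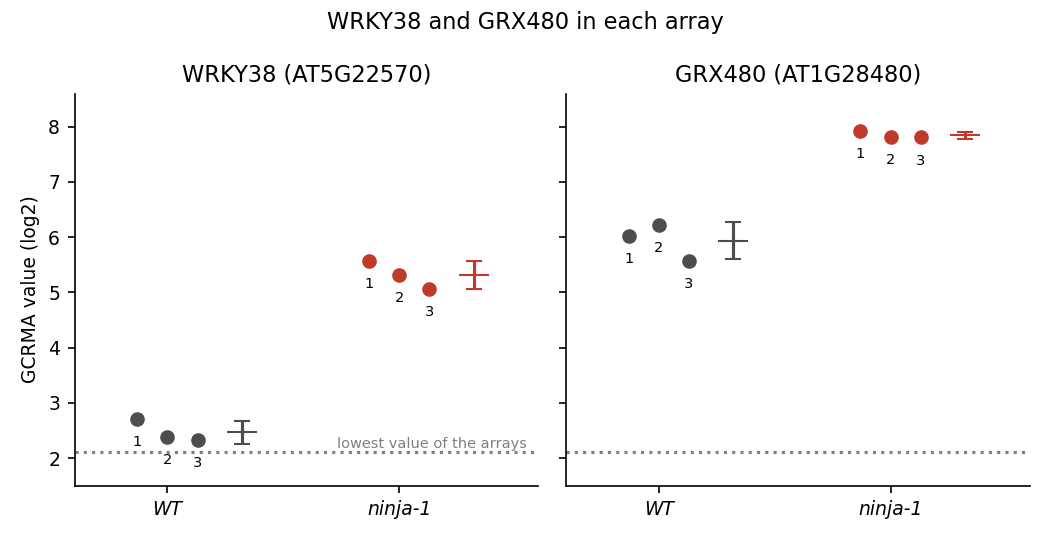
Log2 GCRMA values of *WRKY38* (left) and *GRX480* (right) in WT (grey) and *ninja-1* (red), 1 point per array with its replicate number, and the mean ± SD (n = 3) beside them. *WRKY38* left the floor (dotted line, 2.11) and reached 5.07 to 5.56, and *GRX480* went from 5.57 to 6.23 in WT to 7.80 to 7.92.

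Those members of both families that the annotation names were read to see whether they moved as *WRKY38* and *GRX480* did. *WRKY62*, the relative of WRKY38 named above, was not among them. Of 71 other WRKY genes, 7 had a value under their own name, and none passed the adjusted p in either direction, where 0.805% of all probe sets were higher and 0.374% lower. Their differences ran from -1.07 to 0.77 with a median of 0.00, the median of all probe sets. *WRKY53*, an SA-responsive regulator of leaf senescence and the only other group III gene measured of 12, had values of 3.84, 4.41 and 4.41 in WT and of 5.50, 5.18 and 4.29 in *ninja-1*. The genotypes overlapped, since *ninja-1* replicate 3 lay below 2 WT arrays, and the difference was 0.77 (95% interval -0.27 to 1.81, adjusted p = 0.530, limma). An interval this wide holds both no change and a 2-fold rise.

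A pair of WRKY genes lay on the other side of 0. *WRKY22*, which acts in immune signalling below a MAP kinase cascade, had values of 5.80, 5.68 and 5.82 in WT and of 4.35, 4.63 and 5.11 in *ninja-1*. All mutant arrays were below all WT arrays, as in 10.1% of all probe sets. The difference was -1.07 (95% interval -1.64 to -0.50), with an adjusted p of 0.141 in limma. *WRKY6*, a regulator of senescence and phosphate responses, had values of 9.24, 9.03 and 9.42 in WT and of 8.73, 8.52 and 8.58 in *ninja-1*, again without overlap, and a difference of -0.62 (95% interval -0.95 to -0.29, adjusted p = 0.141). Neither passed in limma over all probe sets. Both passed once dim probe sets were left out, with adjusted p of 0.0138 and 0.0195, and *WRKY6* also after median centring (adjusted p = 0.0375). *WRKY20* and *WRKY47* differed by 0.15 and 0.18 (adjusted p = 0.691 and 0.771), *ZAP1* by 0.00 (95% interval -0.18 to 0.19) and *WRKY42* stayed at the floor.

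Of 10 other glutaredoxin genes found by name, 4 had a value, with a median difference of 0.10. None passed the adjusted p, where 0.805% of all probe sets were higher and 0.374% lower. *ROXY1*, a CC-type glutaredoxin of petal development that also binds TGA factors, had values of 6.50, 6.49 and 6.50 in WT and of 6.75, 6.64 and 6.66 in *ninja-1*. The arrays did not overlap, as in the 7.75% of all probe sets where every mutant array was higher. The difference was only 0.19 (95% interval 0.10 to 0.28, adjusted p = 0.124, limma). *ROXY1* passed after median centring (adjusted p = 0.0273) and after quantile normalization (adjusted p = 0.0367). Its near copy *ROXY2* differed by -0.22 (95% interval -0.77 to 0.32, adjusted p = 0.771). The CPYC-type glutaredoxins *GRXC1* and *GRXC2*, general redox enzymes, differed by 0.01 and 0.23 (adjusted p = 1 and 0.452). The upper ends of the 95% intervals were 0.50 for *GRXC2*, 0.32 for *ROXY2* and 0.10 for *GRXC1*.

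**Figure D2:**
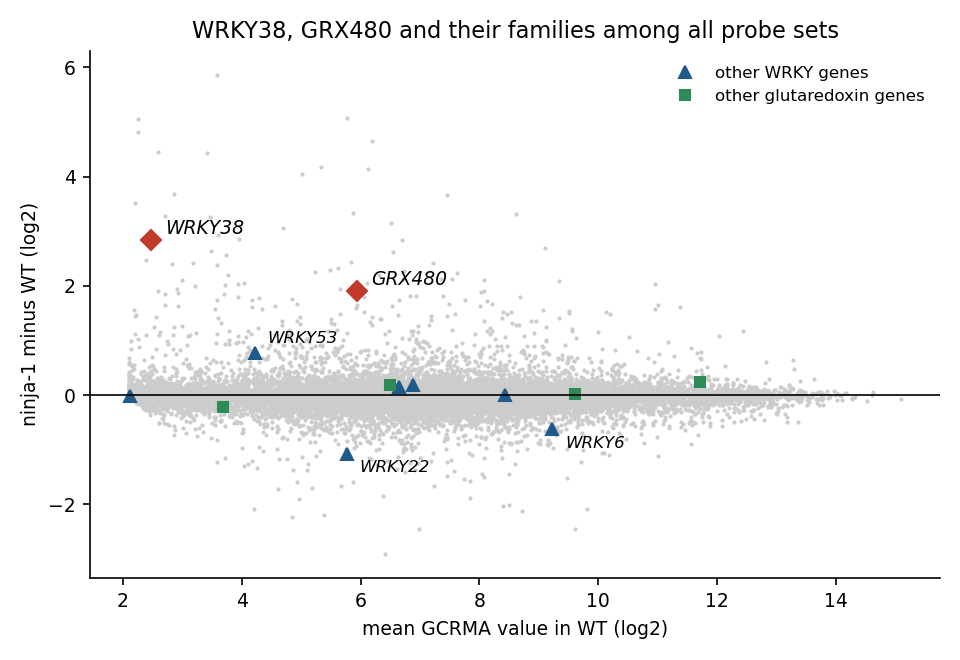
Difference between *ninja-1* and WT (log2) against the mean value in WT (log2) for all 22746 probe sets (grey points), with *WRKY38* and *GRX480* (red diamonds), 7 other WRKY genes (blue triangles) and 4 other glutaredoxin genes (green squares). The other family members lie between -1.07 and 0.77, with *WRKY22* and *WRKY6* below 0.

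The SA pathway was followed from synthesis to response through lists of genes. Together with the WRKY and glutaredoxin families, JA and ethylene defence genes and detoxification genes, these lists hold 152 genes, of which 19 had a value under their own name and 2 more were placed through the study's table. None of the 19 passed the adjusted p in limma, where 0.805% of all probe sets were higher and 0.374% lower. At shares this small, a count of 0 among 19 genes says little about the lists. None of the 19 passed in the per-gene test without moderation either. An unadjusted p under 0.05 in limma was reached by 5 of the 19, a larger share than the 2948 of all 22746 probe sets. Of these 5 only *ROXY1* was higher in *ninja-1*. Leaving out dim probe sets or median centring brought 2 of the 19 past the adjusted p, and quantile normalization 1.

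At the head of the pathway, *EDS5*, the transporter that exports the SA precursor from the chloroplast, was 8.25, 8.18 and 8.19 in WT and 9.44, 9.38 and 9.33 in *ninja-1*. Each mutant array was more than 1 above each WT array, and the gene rose 2.26-fold (log2 difference 1.18, SE 0.04, adjusted p = 0.00372, limma). It passed with any 1 array left out. *EDS5* was placed through a table drawn up from these samples, which holds changed genes alone, so it is not independent evidence for the pathway. None of the other 10 genes of SA synthesis on the list was placed so or had a probe set under its own name. *ICS1*, *PBS3*, *CBP60G* and the *PAL* genes are among these 10.

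None of the 3 enzymes that modify SA and are named by the annotation passed the adjusted p. *MES1* came through the study's table, which holds changed genes alone, so its passing follows from its placement. *MES1*, for an esterase of methyl salicylate and other methyl esters including methyl jasmonate, was 6.88, 6.46 and 6.23 in WT and 9.78, 9.70 and 9.54 in *ninja-1*. It rose 8.88-fold (log2 difference 3.15, SE 0.19, adjusted p = 0.0112), was placed through the same table, and passed in 3 of 6 fits with 1 array left out, not without WT replicate 2, *ninja-1* replicate 1 or *ninja-1* replicate 2 (adjusted p from 0.0714 to 0.0800). As with *WRKY38*, replicate 1 was the highest and replicate 3 the lowest of each genotype. *UGT74F1*, an SA glucosyltransferase, had a difference of -0.41 (95% interval -0.80 to -0.02, adjusted p = 0.359), and *GH3.5*, which conjugates amino acids to SA and auxin, one of -0.39 (95% interval -0.74 to -0.05, adjusted p = 0.333). In both genes each mutant array lay below each WT array, but neither gene passed the adjusted p. Complete separation in this direction was common, at 10.1% of the 22746 probe sets. *BSMT1*, the methyltransferase that makes methyl salicylate, was at 2.11 on all 6 arrays. The 3 genes named by the annotation had a median of -0.39, against 0.00 for all probe sets.

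Of the receptors and partners of NPR1, the SA receptor that carries the SA signal to *WRKY38*, only the relative *NPR2* had a value, 1 of 12 genes. It was near the floor (2.13 on all arrays but WT replicate 3, at 2.71). *SAG101*, a partner of EDS1 in immune signalling and the only one of 6 genes of that branch, differed by 0.21 (95% interval -0.07 to 0.49, adjusted p = 0.525). The 11 genes of SA response on the list, *PR1*, *PR2*, *PR5* and *WRKY62* among them, had no probe set under their own name. The same held for the 10 TGA factors and relatives. None of them was placed through the study's table, and whether they changed could not be read here.

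At the other end of the known action of GRX480 stand genes of the JA and ethylene defence branch. *PDF1.2A* and *PDF1.2B*, 2 of 8 listed, were at 2.11 on every array of both genotypes, at or next to the floor, from which no decrease can be seen. *GSTU25*, a glutathione transferase gene that TGA factors switch on in detoxification and 1 of 10 listed, differed by -0.03 (95% interval -0.41 to 0.36, adjusted p = 1).

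**Figure D3:**
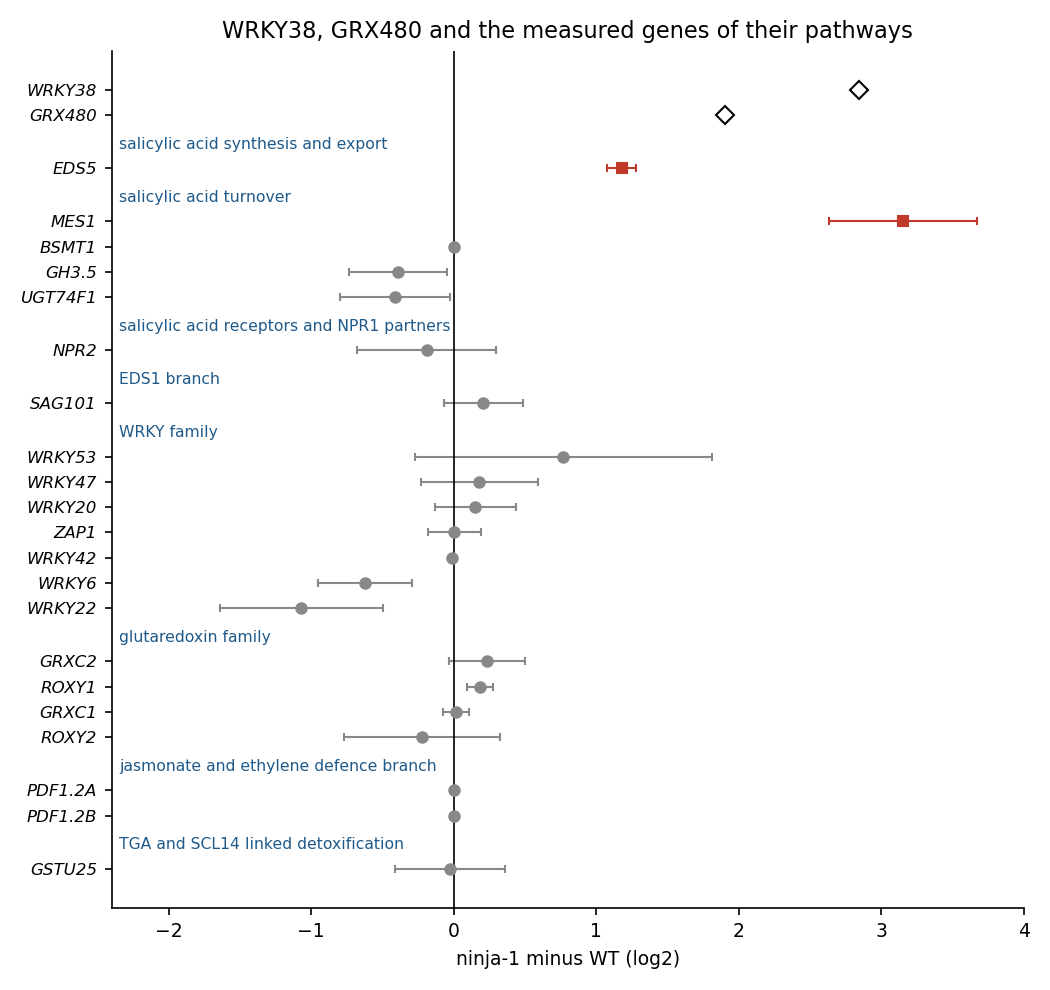
Difference between *ninja-1* and WT (log2) for *WRKY38* and *GRX480* (open diamonds, no error shown) and for the measured genes of each list, with 95% intervals from limma (n = 3 per genotype). Circles are genes named by the annotation and squares the 2 genes placed through the study's table. Red marks an adjusted p under 0.05, reached by *EDS5* (1.18) and *MES1* (3.15).

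The neighbours on the chromosome were read next, since position was no part of the choice. Of the 3 genes on each side of *WRKY38*, 5 had a value. AT5G22550 had values of 4.65, 4.64 and 4.66 in WT and of 5.14, 5.21 and 5.08 in *ninja-1*, a rise of 0.49 or 1.41-fold (SE 0.04, adjusted p = 0.0192, limma). This is under 2-fold, and it passed in 2 of 6 fits with 1 array left out: it did not without any 1 WT array or without *ninja-1* replicate 1 (adjusted p from 0.0941 to 0.105). Next to it, AT5G22555 was at 2.22, 2.19 and 2.19 in WT and at 3.80, 3.93 and 2.22 in *ninja-1*. Replicate 3 of the mutant stayed at the WT level, and the difference of 1.11 (95% interval -0.29 to 2.52) had an adjusted p of 0.499, or of 0.0116 without that array. AT5G22580, on the other side of *WRKY38*, was at 3.97, 3.68 and 3.72 in WT and at 4.86, 5.02 and 4.50 in *ninja-1*. Its mutant arrays all lay above its WT arrays, as in 7.75% of all probe sets, and its difference was 1.00 (95% interval 0.54 to 1.46). Its adjusted p was 0.112 in limma, 0.00881 once dim probe sets were left out and 0.0277 after median centring. The next 2 genes, AT5G22590 and AT5G22600, were at the floor on all arrays. AT5G22560, between AT5G22555 and *WRKY38*, had no value.

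Around *GRX480*, 1 of 6 neighbours had a value. AT1G28510, the third gene on that side, had a mean of 9.81 ± 0.10 (SD, n = 3) in WT and of 9.79 ± 0.10 (SD, n = 3) in *ninja-1*, with a difference of -0.02 (95% interval -0.22 to 0.19, adjusted p = 1). The genes directly beside *GRX480* were not measured under their own name.

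**Figure D4:**
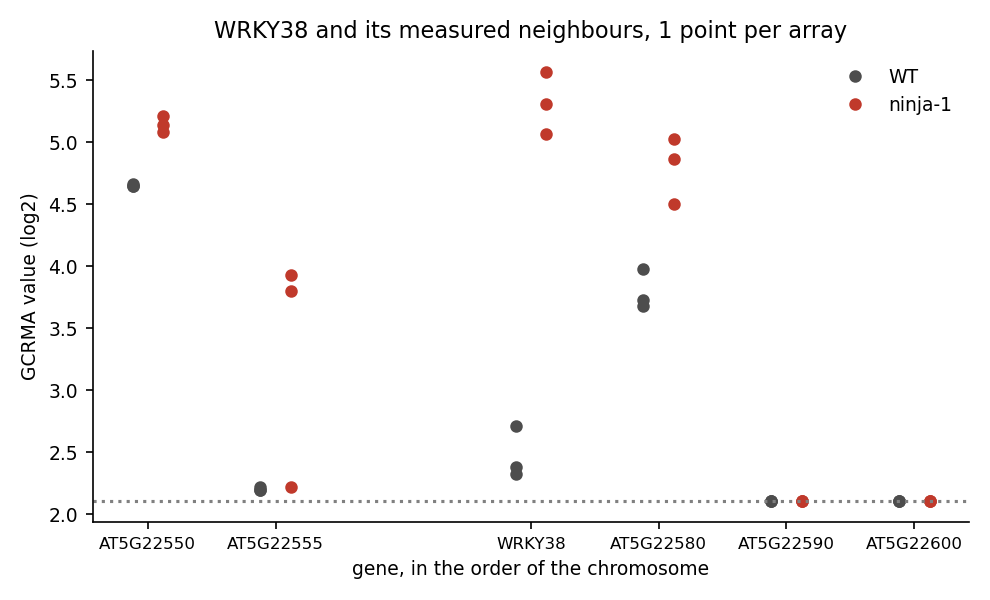
Log2 GCRMA values of *WRKY38* and of 5 measured genes among the 3 on each side, in chromosome order with even spacing (AT5G22560, left of *WRKY38*, has no value), 1 point per array in WT (grey) and *ninja-1* (red). The groups are apart in AT5G22550, *WRKY38* and AT5G22580, mixed in AT5G22555 and at the floor (dotted line, 2.11) in the last 2.

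To find the transcripts whose behaviour over the 6 arrays was most like that of each gene, the WT mean of each probe set was subtracted and the distance between profiles was taken as the root of the summed squared differences over the arrays, in log2 units. A gene near *WRKY38* or *GRX480* by this measure must have risen too, and the measure also favours a like order of replicates. No test is given for this reason. *WRKY38* and *GRX480* were 1.71 apart. Of 13285 genes named by the annotation, 20 were nearer to *WRKY38* than *GRX480* was, and 70 were nearer to *GRX480* than *WRKY38* was.

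Nearest to *WRKY38* was *JAL22*, for a jacalin-related lectin, at a distance of 0.41. Its values were 9.27, 9.07 and 8.99 in WT and 11.9, 11.8 and 11.8 in *ninja-1*, a difference of 2.69. Replicate 1 was the highest of each genotype here too. It was followed by the aspartyl protease gene AT5G19110 (distance 0.76), the amino acid transporter gene AT5G02170 (distance 0.79), the defensin-like gene AT2G43530 (distance 0.87) and the oxygenase gene AT1G14120 (distance 0.89), with differences from 2.62 to 3.33. Of these 5, AT2G43530 also started near the floor, at 2.71 ± 0.09 (SD, n = 3) in WT, and reached 5.98 ± 0.22 (SD, n = 3).

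Nearest to *GRX480* was AT2G43535 (distance 0.40), another defensin-like gene, whose AGI code places it beside AT2G43530. Its values were 8.16, 8.31 and 7.93 in WT and 9.82, 9.86 and 9.91 in *ninja-1*. WT replicate 3 was the lowest array and WT replicate 2 the highest of WT, as for *GRX480*. The next were the RNA-binding protein gene AT4G13860 (distance 0.48), the strictosidine synthase-like gene AT3G51450 (distance 0.53), the MATE transporter gene AT5G38030 (distance 0.55) and the acyltransferase gene AT5G47980 (distance 0.55), with differences from 1.73 to 2.13 over the 5. Only genes named by the annotation were compared, so *EDS5* and *MES1*, placed through the study's table, could not appear. The difference of *MES1*, 3.15, lay within the range of the 5 genes near *WRKY38*. Within that limit, neither set of 5 holds a WRKY, a glutaredoxin or a listed gene of the SA pathway. This follows from the measure, since no list gene named by the annotation had a difference above 0.77. Ranked by correlation over the arrays in place of distance, 1 of the 5 was again among the nearest of *WRKY38* and 2 of the 5 among those of *GRX480*.

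**Figure D5:**
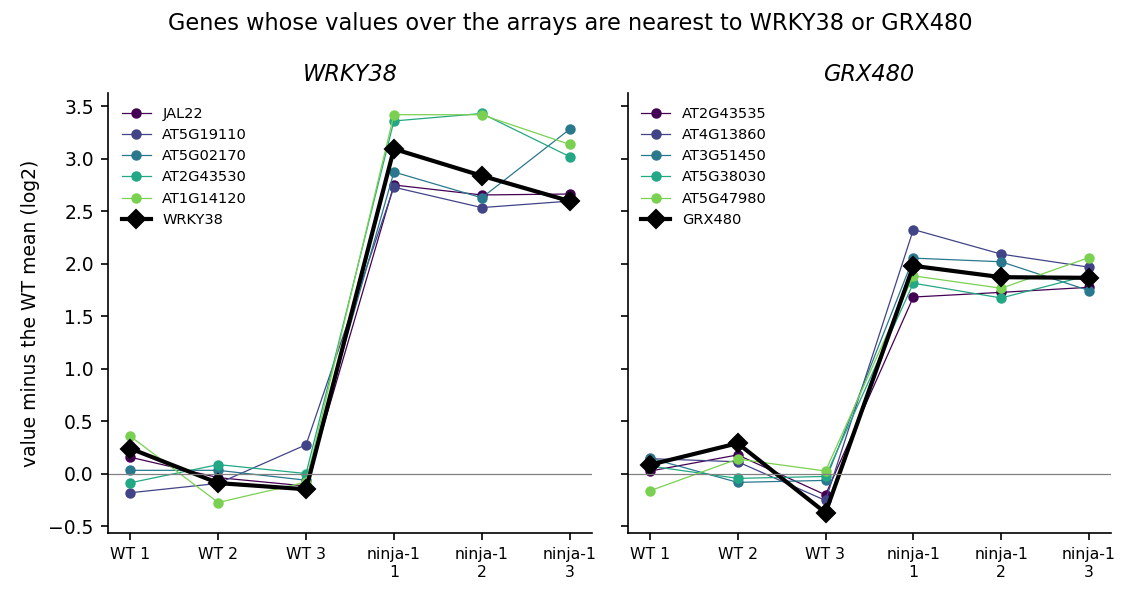
Log2 values minus the WT mean on each of the 6 arrays for *WRKY38* (left, black) and *GRX480* (right, black) and for the 5 annotated genes nearest to each (coloured). Lines join the points of 1 gene, and the arrays of a genotype have no order. The genes near *WRKY38* rose by 2.62 to 3.33 and those near *GRX480* by 1.73 to 2.13.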

How the data were processed

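Total RNA from roots was hybridised to 6 ATH1 arrays, and the authors normalised the raw data with GCRMA in R (version not given in the sources used here). The deposited log2 values were used as they are, without the 64 control probe sets. WT and *ninja-1* were compared in limma 3.58.1 under R 4.3.3 (lmFit and eBayes, no block, two-sided). P-values were adjusted by Benjamini-Hochberg across 22746 probe sets, and calls needed an adjusted p under 0.05 and a 2-fold change. The fit was tested on simulated data. The number of arrays limits the precision.

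The annotation gives 13436 probe sets a single gene. A gene said here to have no value may still be on the array under a probe set that the annotation leaves unnamed. The annotation names *GRX480* but not *WRKY38*, whose probe set came with the selection. Genes of the study's table of changed genes were otherwise placed by the only probe set that matched it in fold change, to 0.06 plus 0.5%, and in adjusted p, to 6e-04. For *WRKY38* this was the probe set of the selection. For 48 annotated genes of the table with 1 match, it was the right one for all 48. For genes so placed, fold change and p follow from the match. That table's values were used for naming only. No genome build is named for the arrays, so no coordinates are given.

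Members and lists were chosen with earlier results of these data known. Named are both members, the 4 genes of smallest p per list and all that passed where these were at most 6, 3 neighbours per side and the 5 nearest profiles. A list gene has its brightest probe set.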

Additional observations from a re-analysis of the deposited data

How the results depend on the processing

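The differences of *WRKY38* and *GRX480* moved by less than 1 SD under median centring, quantile normalization, linear means and with 1 array left out (2.72 to 2.97 and 1.72 to 2.05). A replicate block cannot change these differences, since both genotypes hold the same replicate numbers. With the block no probe set was called, *WRKY38* and *GRX480* included. The counts behind the background did move. Of all probe sets, 112 were called higher, but 170 with dim probe sets left out (a log2 value above 4 in at least 3 arrays required), 170 after median centring, 0 with a replicate block and 33 to 83 with 1 array left out. The 11 called lower became 5 in the per-gene test, 58 without dim probe sets, 40 after median centring, 0 with the block and 3 to 12 with 1 array left out. Of the 19 list genes, 0 passed in limma, 2 without dim probe sets (*WRKY22* and *WRKY6*), 2 after median centring (*ROXY1* and *WRKY6*), 1 after quantile normalization (*ROXY1*) and 0 with any 1 array left out. The 2 genes placed through the table, *EDS5* and *MES1*, became 0 with the block (adjusted p = 0.0601 and 0.0909) and 1 to 2 with 1 array left out. The replicate numbers are shared by the genotypes without a stated pairing, and deviations of same-numbered arrays correlated at 0.09, 0.05 and 0.15, WT replicate 1 more with *ninja-1* replicate 2 (0.15) than with replicate 1. Of 472 refits of single named genes, 408 kept their side of the threshold, 56 lost it and 8 gained it. Only genes that had passed could lose it, and all of these did with the replicate block. The 408 include refits of genes at the floor, which could hardly cross the threshold. The ranking by correlation was chosen after seeing the data.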

Other observations

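Redox genes beside the glutaredoxins and transcription factors beside the WRKY family were also read, in families picked by symbol after the values had been seen, so values are given with no test. Of 5 methionine sulfoxide reductase genes, which repair oxidised methionine, *MSRB6* had the highest difference, 1.36, and the median was 0.31. Of 13 glutathione S-transferase genes, *GSTU20* was the highest at 1.67 and *GSTF4* the lowest at -0.54, with a median of -0.23. Over 26 transcription factor genes named by the annotation with a WRKY, NAC, bHLH or bZIP symbol, *WRKY38* apart, the differences ran from -1.07 to 0.77. *WRKY22* was the lowest and *WRKY53* the highest, with a median of -0.01 and none at 1 or above. MYB and ERF symbols were searched too, but no such gene had a probe set of its own. Those families were therefore not read. Genes placed only through the study's table are not among the 26, so the count does not speak for raised transcription factors that the annotation leaves unnamed.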
